A study of Rattus norvegicus with 4 samples.

Results

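The Id, Hes, Hey and SoxD factors hold oligodendrocyte precursor cells (OPCs) back from differentiation, and 10 genes of this group, with the receptor that drives part of it, were followed in rat OPCs in which the G protein-coupled receptor GPR17 had been silenced. The members were Id1, Id2, Id3, Id4, Hes1, Hes5, Hey1, Sox5, Sox6 and Notch1, chosen by name as known inhibitors of OPC differentiation, and every probe matched to one of these symbols was taken. They were measured by 13 of the 45598 probes of the array, and the arrays hold a matched probe for 16568 genes. Signal was well above background on at least 2 arrays for 12 of the 13 probes, which cover 9 of the 10 genes. The exception was Id3. In all, 28016 probes, of which those with a symbol cover 11656 genes, were tested.

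The cells came from cortices of rats at postnatal day 2, and had proliferated for 3 days with bFGF and PDGF before being placed in differentiating medium with the thyroid hormone T3. Both groups received a small interfering RNA pool at 50 nM with a lipid reagent. In the siNEG group it was a non-targeting control pool and in the siGPR17 group a pool against Gpr17, and RNA was taken 48 h later, at day 2 of maturation. Each group consisted of 2 independent samples, each hybridised to its own one-color Agilent array, so that the small number of arrays limits the precision of every value below. Both groups are transfected primary cultures from pooled cortices, and no untransfected cells were included among the 4 arrays.

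On each array, 26997 to 28244 probes were well above background and no probe was saturated, and the arrays correlated with each other at 0.989 to 0.991 over all probes. The siNEG arrays occupied one column of the slide and the siGPR17 arrays the other, so that slide column and treatment cannot be told apart. Gpr17, the silenced gene, gave signals of 1107 and 1113 on the siNEG arrays and of 652.3 and 639.4 on the siGPR17 arrays. Its log2 difference, siGPR17 minus siNEG, was -0.78 (SE 0.085), with an adjusted p of 0.209 in limma. The labelled cell type was checked by its markers. All 9 OPC markers with a probe, among them Pdgfra, Cspg4, Olig1, Olig2 and Sox10, were bright enough to be tested. Many markers of other cell types were bright enough as well. Tested were 10 of 10 astrocyte, 9 of 10 neuron, 8 of 10 microglia, 6 of 10 endothelial and 4 of 10 fibroblast and mural markers, while Pecam1 and Cldn5 (endothelial), Dcn, Lum and Pdgfrb (fibroblast and mural) and Csf1r and Ptprc (microglia) were among those too dim. Since these are whole cultures, fewer cells of a type and less RNA per cell cannot be told apart.

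Id proteins have the helix-loop-helix fold but lack the basic region that binds DNA, and they are known to hold back differentiation by pairing with E proteins, which leaves the E proteins unavailable to Olig1, Olig2 and other basic helix-loop-helix (bHLH) activators. They are classical targets of BMP and SMAD signalling. Hes1, Hes5 and Hey1 are bHLH repressors that are switched on when the cleaved intracellular part of a Notch receptor joins the DNA-binding protein RBPJ, and Notch1 is such a receptor. Sox5 and Sox6 form the SoxD group, which lacks a domain for activating transcription, and they are known to compete with Sox10 at the regulatory regions of myelin genes.

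The core letters of the RBPJ site are marked in the promoters of Hes1 and Hes5. These are shown because RBPJ sites near their start are the textbook link between the receptor and its repressors. The sequences are the 250 bases before the transcription start in RefSeq, assembly GRCr8, written in the direction of the gene. Hes1 lies at chr11:84213046-84213295 on the minus strand and Hes5 at chr5:170804327-170804576 on the plus strand. Capitals mark the RBPJ core TGGGAA and the N-box CACNAG, at which Hes proteins themselves bind, on either strand.
Hes1: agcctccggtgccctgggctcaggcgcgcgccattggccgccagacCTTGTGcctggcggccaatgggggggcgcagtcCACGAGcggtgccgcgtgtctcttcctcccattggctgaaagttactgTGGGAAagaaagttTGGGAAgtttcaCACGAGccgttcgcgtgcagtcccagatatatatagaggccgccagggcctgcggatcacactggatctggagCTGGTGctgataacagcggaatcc
Hes5: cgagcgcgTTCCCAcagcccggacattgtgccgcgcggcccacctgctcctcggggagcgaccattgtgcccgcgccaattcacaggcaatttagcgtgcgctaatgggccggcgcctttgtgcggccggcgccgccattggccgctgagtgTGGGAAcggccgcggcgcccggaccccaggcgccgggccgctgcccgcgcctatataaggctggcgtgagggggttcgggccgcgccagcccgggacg
The Hes1 promoter held the RBPJ core at 2 places, 123 to 118 and 109 to 104 bases before the start and both on the strand of the gene, and 4 N-boxes. The Hes5 promoter held the RBPJ core at 98 to 93 bases before the start and again, on the opposite strand, at 242 to 237. Over 33469 promoters of this length, 22.1% held a TGGGAA and 37.2% a CACNAG on either strand. A promoter was matched for 8 of the 10 members, that is all but Hey1 and Sox5. In 4 further searches, for the E-boxes CACGTG and CAGCTG, the SMAD element GGCGCC and the Sox core AACAAT, Hes5 held GGCGCC at 4 places, Id2 held CAGCTG at 1 and Sox6 held CACGTG at 1, while 5.59% of all promoters held CACGTG, 11.97% held CAGCTG, 8.69% held GGCGCC and 10.3% held AACAAT. Notch1 held 4 N-boxes, of which 1 pair overlapped. None of the 6 motifs was found in this stretch of Id1, Id3 or Id4. These matches describe the sequence alone, because the arrays measured transcripts and not binding. RBPJ sites with letters other than TGGGAA were not searched, so a match need not be a site in use and a site may be unmarked.

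Silencing of GPR17 left the inhibitors without a common direction. Of the 9 genes measured, 5 had a lower and 4 a higher mean on the siGPR17 arrays, where 48% of all tested genes had a lower mean. Both siGPR17 arrays lay below both siNEG arrays for Sox5, Sox6, Id4 and Notch1 and above them for Hey1 and Id2, whereas the groups overlapped for Id1, Hes1 and Hes5. This makes 6 of 9 genes with groups that did not overlap, where 53.4% of all tested genes had such groups (25.3% lower and 28.1% higher). None of the 9 members passed the thresholds of the comparison, a fold change of 1.5 with a Benjamini-Hochberg adjusted p under 0.07 in limma. The same fit called 0% of all 11656 genes and 0.00357% of the probes, which is 1 of 28016. With limma's trend and robust options 0 of 9 members passed by the brightest probe, beside 1.58% of all tested genes (0.832% lower). After normexp background correction it was 0 of 9 beside 0.961% (0.446% lower). A further probe of Sox5 did pass under both settings, as given below. At an unadjusted p under 0.05, limma called 2 members, Sox5 lower and Hey1 higher, where 16.2% of all tested genes were called (8.73% lower and 7.43% higher). The median log2 difference of the members was -0.05, beside 0.01 over all tested genes. No member reached a fold of 1.5 by its brightest probe, as 5.08% of the tested genes did (2.65% lower). Scaling on the spike-in controls in place of each array's 75th percentile raised every log2 difference by 0.13, so that the members' median became 0.07 and Id1 joined the genes with a higher mean.

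**Figure D1:**
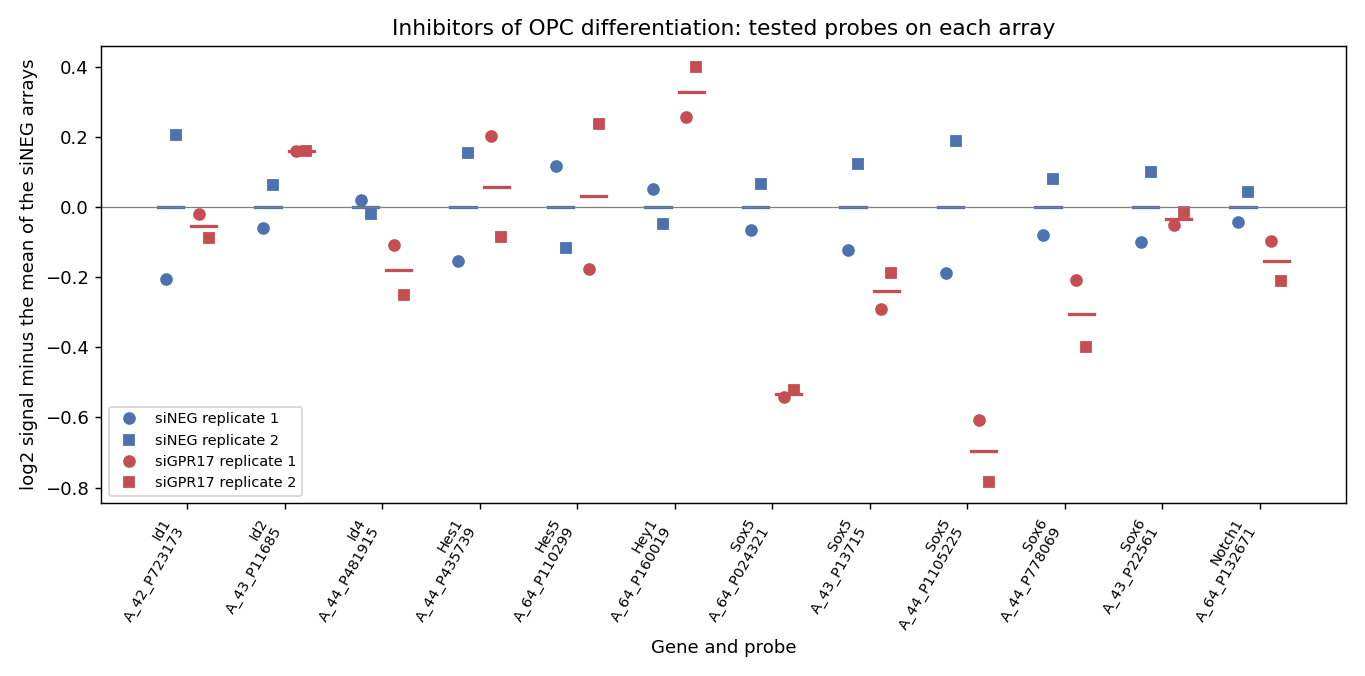
Signal of the 12 tested probes of the 9 measured inhibitors, as the log2 value of each array minus the mean of the siNEG arrays (vertical axis), by gene and probe (horizontal axis). Points are single arrays, circles replicate 1 and squares replicate 2, blue for siNEG and red for siGPR17, and short lines are group means. The 3 Sox5 probes have both red points below both blue points, Hey1 has both above, and for Id1, Hes1 and Hes5 the colors intermingle.

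Sox5 had the lowest difference among the members. It is one of the SoxD factors, which keep precursors from maturing, and 3 probes measured it. The brightest probe, A_64_P024321, gave signals of 2827 and 3100 in siNEG and of 2032 and 2061 in siGPR17. Both silenced samples were thus below both controls, 1.45-fold on average, with a log2 difference of -0.53 (95% interval -0.80 to -0.27), and only 3.37% of all tested genes had a lower difference. The adjusted p was 0.209 in limma, 0.032 with limma's trend and robust options and 0.047 after normexp background correction, with the fold below the threshold of 1.5 under each, and ran from 0.032 to 0.677 over 15 alternatives. The probe A_44_P1105225, which is designed to a predicted transcript, gave 588.5 and 763.4 in siNEG against 439.9 and 389.0 in siGPR17. Its log2 difference was -0.70 (SE 0.167), a fold of 1.62, with an adjusted p of 0.225 in limma. This probe passed both thresholds with the trend and robust options of limma, adjusted p of 0.052, and with normexp, adjusted p of 0.055. Under these settings 1.5% and 0.864% of all tested probes passed, and over 14 alternatives the adjusted p of this probe ran from 0.052 to 0.668. The dimmest of the probes, A_43_P13715, gave 64.7 and 76.7 against 57.6 and 61.8, a log2 difference of -0.24 (SE 0.125, adjusted p of 0.403 in limma). The difference of this probe shrank to -0.06 (SE 0.085) after normexp correction and to -0.11 with spike-in scaling. All 3 probes were therefore lower on both siGPR17 arrays, and they differed from each other in the size of the difference. Leaving out 1 array at a time gave log2 differences between -0.60 and -0.47 for the brightest probe.

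Sox6, the other SoxD factor measured, pairs with Sox5 through a shared coiled-coil domain. Its brightest probe, A_44_P778069, also designed to a predicted transcript, gave signals of 9957 and 11117 in siNEG and of 9113 and 7972 in siGPR17. The groups did not overlap, with a log2 difference of -0.30 (95% interval -0.63 to 0.03) and an adjusted p of 0.320 in limma. The probes of this gene disagreed. A_43_P22561 gave 1040 and 1195 in siNEG against 1076 and 1103 in siGPR17, so that the silenced samples fell between the controls, with a log2 difference of -0.03 (SE 0.110). The mean of both probes gave -0.17. Spike-in scaling gave -0.18 for the brightest and 0.10 for A_43_P22561, which also turned to 0.07 without siNEG replicate 2.

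Sox10, the activator with which the SoxD factors compete, gave 50584 and 57382 in siNEG and 52963 and 53603 in siGPR17, a log2 difference of -0.02 (SE 0.105) with overlapping groups. Of 7 Sox partners and relatives, all tested, 5 had a lower and 2 a higher mean (3 lower with spike-in scaling). Of these, 3 and 1, respectively, had groups that did not overlap, as 25.3% and 28.1% of all tested genes did. The unadjusted p was below 0.05 in limma for 1 of the 7, Sox13, the remaining SoxD family member, which was higher on both siGPR17 arrays at 0.33. Sox8, a SoxE factor like Sox10, had -0.35, and Sox4, a SoxC factor of immature cells, had -0.26 by its brightest probe and -0.05 and -0.11 by the others. The OPC and neuron marker lists were lower along with Sox5 and Sox6. All 9 tested OPC markers had a lower mean (7 with spike-in scaling). Of these 9, 7 were lower on both siGPR17 arrays, Gpr17 itself included, where 25.3% of all tested genes were. The summed signal of the OPC markers ran from 237183 to 278391 in siNEG and from 225060 to 225481 in siGPR17. Of the 10 neuron markers 9 were tested, and all 9 had a lower mean (7 with spike-in scaling). On both siGPR17 arrays 7 of them were lower, beside the same 25.3%. Their summed signal was 7365 and 8709 in siNEG against 7124 and 6861 in siGPR17. Slc17a6, a marker of excitatory neurons, was too dim to be tested. The part of either list in the Sox5 and Sox6 values was not tested.

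The Id genes went in different directions. Id2, the Id gene best known from studies of OPC timing, was higher in silenced cells, with signals of 4962 and 5403 in siNEG and of 5781 and 5777 in siGPR17. Its log2 difference was 0.16 (95% interval -0.10 to 0.42), with an adjusted p of 0.451 in limma. Id4, an Id protein that restrains the same lineage, was on the opposite side, with 413.4 and 402.4 in siNEG and 378.3 and 342.9 in siGPR17. Its log2 difference was -0.18 (95% interval -0.45 to 0.09, adjusted p of 0.422 in limma), and -0.05 with spike-in scaling. Neither difference passed the test. Id1, an immediate target of BMP signals, gave 1966 and 2614 in siNEG and 2233 and 2131 in siGPR17. The silenced samples of Id1 lay between the controls, and the log2 difference of -0.05 (95% interval -0.51 to 0.40) had either sign when 1 array was left out, from -0.26 to 0.15. Id3 gave signals of 3.82 and 4.04 in siNEG and of 3.81 and 3.54 in siGPR17, which were not well above background on any of the 4 arrays, so no fold is given. Astrocytes express Id genes as well. Of the 10 astrocyte markers tested, 6 had a lower mean (5 with spike-in scaling) and 4 a higher one, up to 0.33. On both siGPR17 arrays 5 were lower, Aqp4 at -1.35 and Gfap at -0.61 among them, and 1 was higher. Over all tested genes 25.3% were lower and 28.1% higher on both. The median of the astrocyte markers was -0.125, and 0.003 with spike-in scaling. The summed signal of that list overlapped between groups, 116565 to 131305 in siNEG and 119062 to 120300 in siGPR17, and its part in the Id4 value was not tested.

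None of the E proteins and Olig factors that Id proteins act upon passed the test. All 6 bHLH partners listed were tested, 5 had a lower and 1 a higher mean (1 lower with spike-in scaling), and limma called none of them at an unadjusted p under 0.05, nor past the thresholds with the trend and robust options or with normexp. The log2 difference was -0.11 for Tcf3, -0.10 for Tcf4 and -0.10 for Tcf12, the 3 E protein genes, and a further probe of Tcf12 gave 0.08. Olig2, the lineage factor, was lower on both siGPR17 arrays at -0.24 (95% interval -0.72 to 0.24), a value that rested on siNEG replicate 2 and was -0.01 without it. Olig1 had -0.10. The median of these partners was -0.10, and became 0.02 with spike-in scaling.

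The BMP genes upstream of Id expression had a lower mean in 15 of 23 tested, or 7 of 23 with spike-in scaling. In limma 3 were lower and 1 higher at an unadjusted p under 0.05, where 16.2% of all tested genes were called, and none passed the thresholds. Among 14 receptors and SMAD proteins with a tested probe, Acvr1, a type I receptor of the BMP group, gave 43.3 and 47.8 in siNEG and 23.4 and 24.9 in siGPR17. Its log2 difference was -0.91 (SE 0.102, adjusted p of 0.209 in limma), and -0.29 after normexp correction. Bmpr2, the type II receptor, gave 778.3 and 772.4 in siNEG and 585.7 and 574.6 in siGPR17 by its brightest probe, a log2 difference of -0.42 (SE 0.085), and its other probes gave -0.48 and -0.33. All 3 Bmpr2 probes were lower on both siGPR17 arrays. Smad9, a BMP-activated SMAD, stood well above background on the siGPR17 arrays only, so its difference is no measured fold. Smurf1, a ubiquitin ligase that removes SMAD proteins, was higher on both at 0.25. Among 9 tested ligands and antagonists, the 3 with the lowest p were Bmper, a modulator of BMP at -0.32, the ligand Bmp2 at 0.31, for which a second probe overlapped between groups at 0.13, and the antagonist Nog at -0.45 (SE 0.239). Nog had -0.15 without siNEG replicate 2 and -0.19 after normexp correction. The median was -0.07 for the ligands and antagonists and -0.04 for the receptors and SMADs, and both turned above 0 with spike-in scaling, at 0.06 and 0.08.

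**Figure D2:**
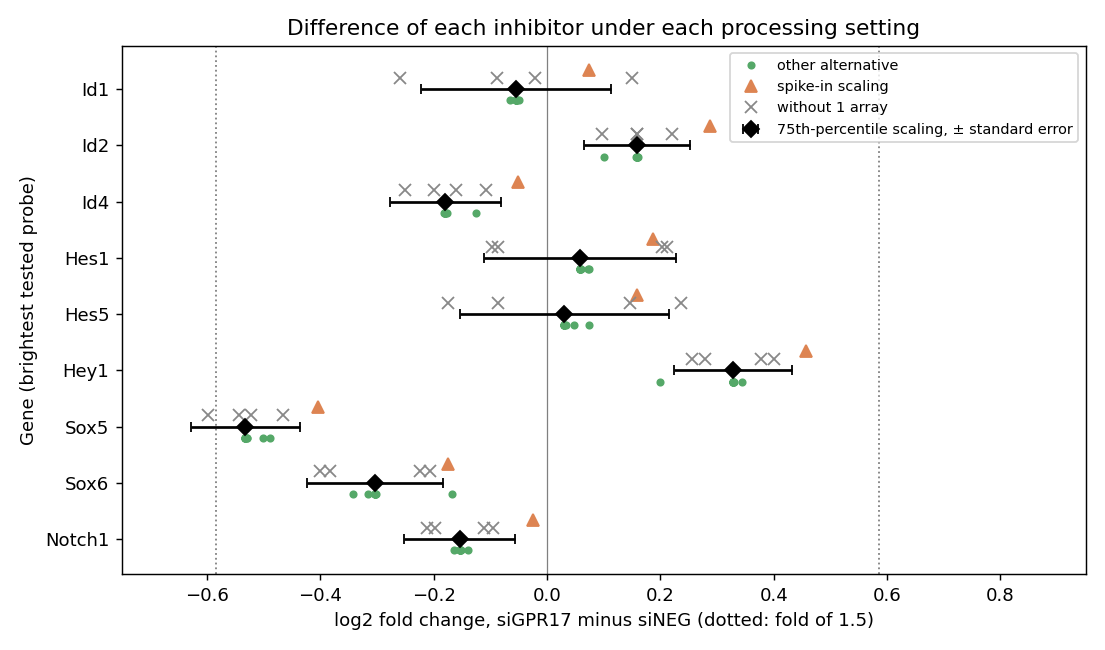
Log2 difference, siGPR17 minus siNEG, of the 9 measured inhibitors (horizontal axis; vertical axis, gene by its brightest tested probe). Black diamonds with bars are the values ± standard error after scaling on the 75th percentile, crosses leave out 1 array, triangles use spike-in scaling and dots the other settings. All settings keep Sox5, Sox6, Id4 and Notch1 below 0 and Hey1 and Id2 above 0, while Id1, Hes1 and Hes5 fall on both sides.

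Among the Notch-regulated repressors, Hey1 was higher in GPR17-silenced cells and the Hes genes were not separated. Hey1 gave signals of 95.4 and 89.0 in siNEG and of 110.1 and 121.5 in siGPR17. Both silenced samples exceeded both controls, with a log2 difference of 0.33 (95% interval 0.04 to 0.61), an unadjusted p of 0.032 and an adjusted p of 0.267 in limma, and 91.8% of tested genes had a lower difference. The value was 0.20 after normexp correction and 0.46 with spike-in scaling. Hey1 is also expressed by endothelial cells. Of the 6 endothelial markers tested, 5 were higher on both siGPR17 arrays, as 28.1% of all tested genes were, and 1 had a lower mean, at -0.06. The median of the 6 was 0.49, and their summed signal was 1294 and 1201 in siNEG against 1827 and 1715 in siGPR17. Kdr had 0.68, Ocln 0.61, Tek 0.51 and Vwf 0.48, the highest of the 6. Cdh5 and Esam were the remaining markers tested, and 1 of them was the marker with the lower mean. Pecam1, Cldn5, Flt1 and Emcn were too dim to be tested. The part of endothelial transcripts in the Hey1 value was not tested.

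Hes1, whose promoter holds the closely spaced TGGGAA matches shown above, gave 21.3 and 26.3 in siNEG and 27.2 and 22.3 in siGPR17. Hes5, the main Notch effector of neural progenitors, gave 59.7 and 50.8 in siNEG and 48.8 and 64.9 in siGPR17. For both genes the groups overlapped, and the replicates of a group differed by more than the group means. The log2 difference was 0.06 (95% interval -0.41 to 0.52) for Hes1 and 0.03 (95% interval -0.47 to 0.53) for Hes5. Both intervals include 0, and in this fit they stay within a fold of 1.5. Some other settings were more precise and some less. The SE of Hes1 was 0.169 here, 0.084 after normexp correction and 0.304 with limma's trend and robust options. That of Hes5 was 0.184 here, 0.152 with quantile scaling and 0.234 with spike-in scaling. The less precise settings do not exclude a fold of 1.5 for either gene, and the signals of Hes1 were low. Notch1, the receptor, gave 9321 and 9898 in siNEG and 8987 and 8293 in siGPR17, lower on both silenced samples. Its log2 difference was -0.15 (95% interval -0.42 to 0.11, adjusted p of 0.476 in limma), and -0.03 with spike-in scaling.

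The remaining Notch genes were divided in direction, with 16 lower and 20 higher of 36 tested (12 lower with spike-in scaling), none past the thresholds in limma, and 4 lower and 5 higher at an unadjusted p under 0.05, beside 16.2% of all tested genes. Groups did not overlap for 17 of the 36, where 53.4% of all tested genes had such groups (25.3% lower and 28.1% higher). Of the 6 ligands tested, 4 were lower on both siGPR17 arrays and none was higher on both. They were Cntn6, a contactin that acts as a Notch ligand on OPCs, with signals of 2098 and 2480 in siNEG and of 1556 and 1505 in siGPR17 and a log2 difference of -0.58 (SE 0.120), the Delta proteins Dll3 at -0.32 and Dll1 at -0.39, and Cntn1, another contactin, at -0.17. The median of the ligands was -0.25, and -0.12 with spike-in scaling. In the receptor and processing list, the metalloproteases that cut Notch differed in sign, with Adam17 at 0.37 (SE 0.090) and Adam10 at -0.33 (SE 0.092), and Psen2, a catalytic part of gamma-secretase, had 0.29. The median over 19 tested genes of that list was 0.01. Among 11 tested nuclear factors and targets, the Groucho-type corepressors that work with Hes proteins were divided as well. Tle2 gave 496.3 and 463.7 in siNEG and 682.3 and 790.4 in siGPR17, a log2 difference of 0.61 (SE 0.117, adjusted p of 0.210 in limma). It passed the thresholds with the trend and robust options, as 1.58% of all tested genes did. Tle1 had 0.26 and Tle3 -0.28, with a further Tle3 probe at -0.51. Rbpj itself had 0.10 and 0.05 by its probes.

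**Figure D3:**
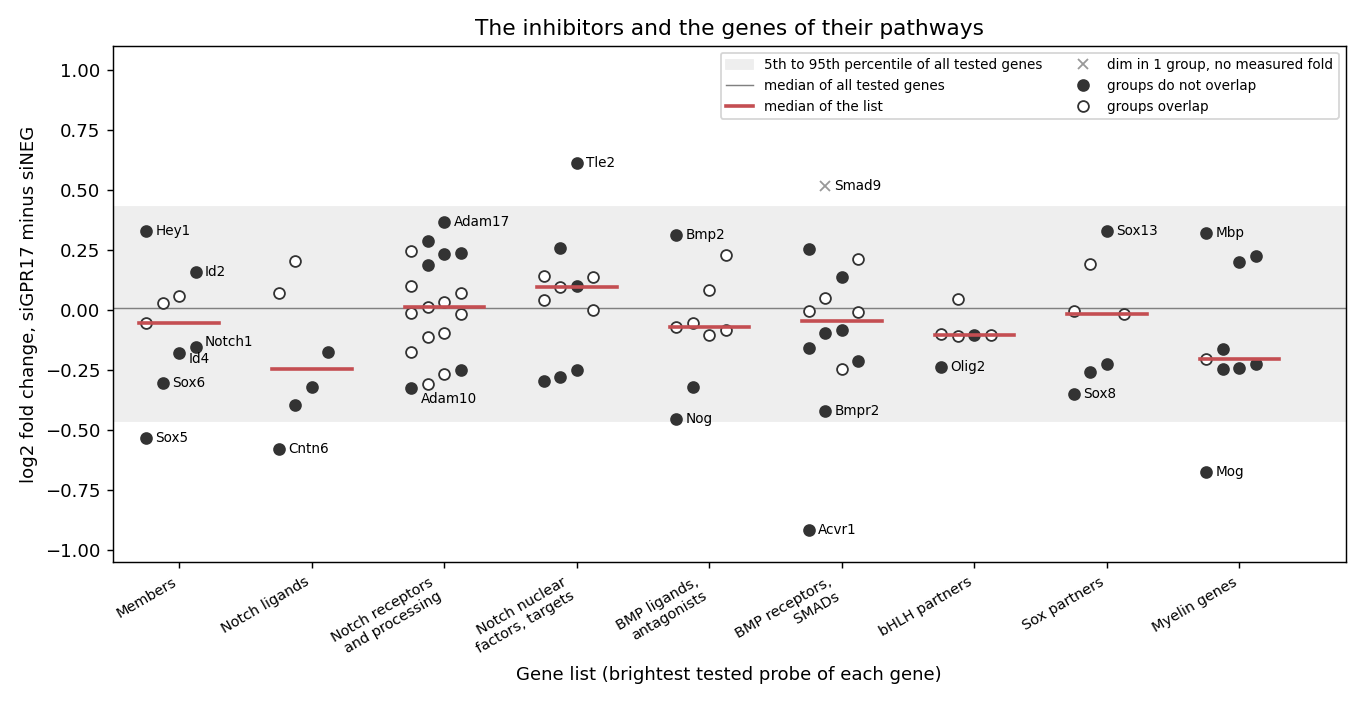
Log2 difference, siGPR17 minus siNEG (vertical axis), of each tested gene in the members and in 8 lists of their pathway partners (horizontal axis), by the brightest probe. Filled points have groups that did not overlap, red lines are list medians, and the grey band holds the 5th to 95th percentile of all tested genes, -0.46 to 0.43. Sox5 lies below the band, the other members lie within it, and Acvr1, Mog, Cntn6 and Tle2 are outside. The grey cross, Smad9, was too dim in siNEG for a measured fold.

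The myelin genes that these inhibitors are known to repress were mixed too. Of 10 listed, 9 were tested, 6 with a lower and 3 with a higher mean, and 5 and 3 of them, respectively, had groups that did not overlap, as 25.3% and 28.1% of all tested genes did. Mog, a late myelin protein, gave 359.3 and 413.2 in siNEG and 255.6 and 227.9 in siGPR17 by its brightest probe. Its log2 difference was -0.67 (SE 0.124, adjusted p of 0.210 in limma), and a second probe overlapped between groups at -0.27. The brightest Mog probe passed the thresholds with the trend and robust options and with normexp, as 1.58% and 0.961% of all tested genes did. Mbp, the basic protein that compacts the sheath, was higher on both siGPR17 arrays at 0.32 (adjusted p of 0.294 in limma). Opalin was too dim to be tested. Across all 81 tested genes of the pathway and myelin lists, 47 had a lower and 34 a higher mean, and with spike-in scaling 29 were lower. In limma 9 were lower and 8 higher at an unadjusted p under 0.05, beside 16.2% of all tested genes, and none passed the thresholds.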

How the data were processed

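Rat OPC RNA was labelled with Cy3 and hybridised to 4 one-color arrays, 2 siNEG and 2 siGPR17, grouped by the sample labels. The authors deposited the spot intensities of each array as given by Agilent Feature Extraction 10.7.3.1, which corrects the processed intensity for background and does not scale between arrays. Here, log2 of the deposited intensity minus each array's 75th percentile was used. Control and outlier-flagged spots were left out and spots of a probe averaged. Probes well above background on 2 or more arrays were tested. Printed signals are normalized values on a linear scale with one factor common to all arrays.

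The groups were compared with limma 3.58.1 (lmFit and eBayes, two-sided) in R 4.3.3, adjusted by Benjamini-Hochberg over all 28016 tested probes, with thresholds of a fold of 1.5 and an adjusted p of 0.07. The scripts were tested on simulated data. A gene is given by its brightest tested probe. Probes were named through a RefSeq table of assembly GRCr8 (21093 probes with a symbol).

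The members and lists were chosen with earlier results of these data known. Named were all members, from each pathway list the 3 genes of lowest unadjusted p and any with non-overlapping groups and a fold of 1.5, the direct partners Tcf3, Tcf4, Tcf12, Olig1, Olig2, Sox10 and Rbpj, and Gpr17. One gene that this rule names is not reported here. Cntn1, Smad9 and the marker genes given with values were named after their values were seen. Alternatives were the filter, a floor, normexp, and quantile, median and spike-in scaling. Normexp had an offset of 50 and used spot medians, because no spot means were available here. Further alternatives were the mean over probes, limma's trend and robust options, the replicate number as a block, leaving out each array without a block, and the methods' t-test. When an array was left out, the same probes were tested and the lone array was assumed to vary like the other group.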

Additional observations from a re-analysis of the deposited data

How the results depend on the processing

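By its brightest probe, or by the mean of its probes, no member passed the thresholds under any of the 15 alternatives. A further Sox5 probe, A_44_P1105225, did pass in limma with the trend and robust options (adjusted p of 0.052) and with normexp (adjusted p of 0.055). Of 135 recomputed member differences, by the brightest probe or the mean of the probes, 129 kept their sign. The sign turned for Id1 with scaling on the spike-in controls (0.074). It also turned for Id1 without siNEG replicate 2, with a range of -0.26 to 0.15 when 1 array was left out, for Hes1 without siGPR17 replicate 1 (-0.09) or siNEG replicate 1 (-0.10), range -0.10 to 0.21, and for Hes5 without siGPR17 replicate 2 (-0.18) or siNEG replicate 2 (-0.09), range -0.18 to 0.24. The cause was not tested, beyond the fact that 1 array sets the sign where groups overlap. Members with a lower mean numbered 4 with spike-in scaling and up to 6 without the filter, which brings in Id3, and 5 to 6 when 1 array was left out. Over all probes, 1 passed the thresholds. That count was 0 with the filter on all 4 arrays, with a floor for dim probes, without a filter, with spike-in scaling, with the methods' t-test and with the replicate number as a block (replicate block, 0 probes), 0 to 0 when 1 array was left out, 242 after normexp correction, and 420 with limma's trend and robust options. Of the 81 tested pathway genes, 1 passed with normexp (Mog), beside 0.961% of all tested genes. With those options 2 of the 81 passed (Mog and Tle2), beside 1.58% of all tested genes. Same-numbered arrays did not deviate together (correlation of deviations from the group means -0.065), so the numbers were not taken as pairs. Id3 and other probes near background allow no statement at this signal, and spike-in scaling moved the median log2 difference of all tested probes from 0.01 to 0.14.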
